A study of Rattus norvegicus with 2 samples.

Results

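The genes of the intermediate filament proteins were followed through the cells of the female rat hypothalamus. The 10 genes were taken by name from the 32883 genes that both count matrices list: *Vim* (vimentin, ENSRNOG00000018087), *Gfap* (glial fibrillary acidic protein, ENSRNOG00000002919), *Nes* (nestin, ENSRNOG00000018681), *Synm* (synemin, ENSRNOG00000014030), *Des* (desmin, ENSRNOG00000019810), *Nefl*, *Nefm* and *Nefh* (the light, medium and heavy neurofilament chains, ENSRNOG00000013658, ENSRNOG00000013916 and ENSRNOG00000008716), *Ina* (alpha-internexin, ENSRNOG00000020248) and *Prph* (peripherin, ENSRNOG00000052880). All 10 were detected in both libraries.

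Both groups were female Sprague Dawley rats of 4 weeks, with tissue taken on PND 29, and the tissue pieces contained the AVPV and the ARC. In SC300 rats, slow-release silicone tubing filled with estradiol benzoate (EB, 300 µg in sesame oil) had been implanted on PND 0.5. The methods describe an oil-filled implant for Control rats, whereas the sample title calls them intact and the series design text names only the oil vehicle for SC300. Tissue of 3 rats was pooled per group before collagenase dissociation and 1 droplet-based 3′ library was made from each pool, so the variation between rats was not measured and no test between the groups was possible.

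RNA molecules were counted as unique molecular identifiers (UMIs). Of the deposited barcodes, 4296 Control and 4379 SC300 barcodes had at least 200 detected genes and were kept, with 51382276 and 56390355 UMIs. The methods give the deposited barcode numbers once and lower cell numbers elsewhere, which both kept numbers exceed. The median per cell was 7986 and 8182 UMIs, 2551 and 2567 genes, and 11.4% and 12.4% mitochondrial UMIs, and the libraries shared 7 barcodes. Cells were put into 14 classes by marker genes, none of which was an intermediate filament gene. Of the 8675 barcodes, 7849 entered a class or were haemoglobin-rich, 826 stayed ungated, and 685 lay near a limit of the gate. Mural cells also carried endothelial RNA (the summed endothelial markers were at 7187 and 7580 CPM, against 14125 and 13736 CPM in endothelial cells), and the 21 Control and 25 SC300 neurons with equal UMIs of GABAergic and glutamatergic markers had a median of 42.7% and 53.3% mitochondrial UMIs. Levels are given as CPM, the UMIs of a gene divided by all UMIs of the class and brought to a common total, with exact 95% intervals that cover counting error only.

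Intermediate filaments are rope-like polymers that give a cell mechanical strength, and each cell type builds them from its own set of proteins. Vimentin is the filament protein of tanycytes, ependymal cells and the cells of vessel walls, GFAP that of astrocytes, and neurons assemble neurofilaments from the light, medium and heavy chains with alpha-internexin or peripherin. Nestin and synemin have long tails and enter filaments together with vimentin or desmin, and desmin is the protein of muscle and pericyte filaments.

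RefSeq (GRCr8) promoter sequences matched 7 of the 10 genes, and 4 are shown because these genes marked 4 different sets of cells: the cells of the ventricle wall and of vessels, astrocytes, neurons with oligodendrocyte precursors, and a small set of neurons. Each line gives the 150 bases before the transcript start, 5′ to 3′ on the strand of the gene, with capitals for matches on either strand. The motifs were the TATA box TATAAA, the CCAAT box, the GC box GGGCGG and the AP-1 motif TGANTCA. The starts are those of RefSeq, while the counts rest on Ensembl genes. *Nefl*, *Nefm* and *Nefh* had no entry.
Vim (chr17:81577111-81577260, plus strand): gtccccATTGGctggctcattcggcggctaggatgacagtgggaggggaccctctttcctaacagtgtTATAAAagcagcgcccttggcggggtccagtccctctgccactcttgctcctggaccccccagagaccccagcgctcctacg
Gfap (chr10:88361662-88361811, minus strand): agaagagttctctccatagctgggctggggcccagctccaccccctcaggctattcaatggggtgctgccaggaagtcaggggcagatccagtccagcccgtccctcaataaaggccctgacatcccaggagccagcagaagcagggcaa
Ina (chr1:255837979-255838128, plus strand): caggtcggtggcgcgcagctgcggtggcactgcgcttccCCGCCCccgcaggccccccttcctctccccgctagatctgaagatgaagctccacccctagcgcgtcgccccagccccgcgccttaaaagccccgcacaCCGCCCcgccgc
Prph (chr7:132097139-132097288, plus strand): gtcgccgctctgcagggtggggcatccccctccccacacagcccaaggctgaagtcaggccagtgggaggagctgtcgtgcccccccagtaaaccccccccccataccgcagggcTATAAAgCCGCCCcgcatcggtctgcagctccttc
In these windows *Vim* held TATAAA 82 bases and CCAAT (as its reverse complement) 144 bases before the start. *Prph* held TATAAA 35 bases and GGGCGG 28 bases before the start, *Ina* held GGGCGG at 111 and 12 bases, and *Gfap* held none of the 4 motifs. Within the longer stretch of 250 bases before the start, *Vim* also held GGGCGG, 180 bases before the start. In that longer stretch TATAAA was found in 12.9% of 33469 promoters, CCAAT in 34.0%, GGGCGG in 30.5% and TGANTCA in 6.34%. No peak or methylation data accompany these sequences, so the matches describe the letters only.

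The 10 genes divided the hypothalamus into glial and vascular genes on one side and neuronal genes on the other. Of the *Vim* UMIs of a library, tanycytes held 30.6% in Control and 22.8% in SC300, ependymal cells 34.3% and 21.2%, and endothelial cells 14.1% and 23.3%. Astrocytes held 89.2% and 93.2% of the *Gfap* UMIs. *Synm* was shared by tanycytes (33.6% and 53.6%) and astrocytes (36.1% and 26.9%), and endothelial cells held 44.1% and 38.9% of the *Nes* UMIs. GABAergic neurons held 86.0% and 84.3% of the *Prph* UMIs. GABAergic and glutamatergic neurons together held most UMIs of *Nefl*, *Nefm*, *Nefh* and *Ina*, and oligodendrocyte precursors held another 11.7% and 11.3% of *Ina*. These shares depend on the number of cells of each class, which was 271 Control and 164 SC300 tanycytes, 86 and 62 ependymal cells, 1237 and 1379 astrocytes and 355 and 325 endothelial cells.

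**Figure D1:**
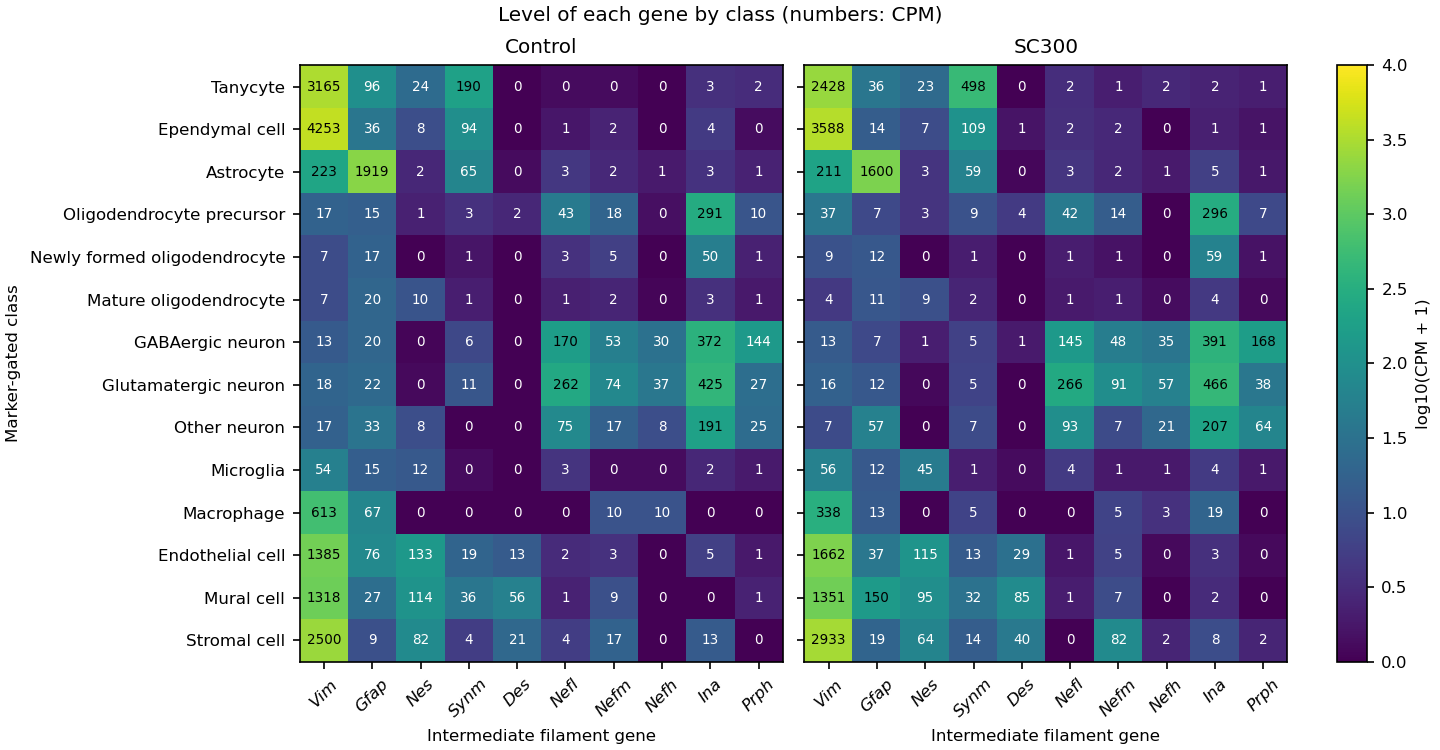
Level of the 10 genes (columns, printed as CPM and colored by log10 of CPM + 1) in the 14 classes (rows) of the Control library (left) and the SC300 library (right), 1 value per class and library. *Vim* is above 1000 CPM in tanycytes, ependymal, endothelial, mural and stromal cells of both libraries, and *Gfap* is above 1000 CPM only in astrocytes.

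SC300 was compared with Control class by class, and a gene was counted where it had at least 50 UMIs over both libraries and differed by more than 1.5-fold. Of 140 combinations of a filament gene and a class, 57 reached 50 UMIs, of which 10 were higher and 10 lower in SC300. *Gfap*, counted once in each class, made up most of the lower combinations, so the combinations are not independent. Over all genes and classes, 7.72% of 90918 combinations differed by more than 1.5-fold. The members were chosen with earlier results of these data known, so this share stands beside them as a description only. Of the 20 combinations, 14 had fewer than 200 UMIs. With at least 200 UMIs, 6 of 28 combinations of a filament gene and a class differed, against 2.95% over all genes. These were *Gfap* in tanycytes, mature oligodendrocytes, GABAergic neurons and endothelial cells, *Synm* in tanycytes and *Nefh* in glutamatergic neurons. Of them, only *Gfap* and *Synm* in tanycytes stayed past 1.5-fold in every alternative processing.

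In tanycytes 4 of the genes were counted, 1 was higher and 1 lower, against 12.2% of all genes counted there. In ependymal cells 1 of 3 was lower (8.49% of all genes), in astrocytes 2 of 6 were higher (5.2%), and in oligodendrocyte precursors 1 of 5 was higher and 1 lower (4.77%). In newly formed oligodendrocytes the only gene counted was within 1.5-fold (6.42%), and in mature oligodendrocytes 2 of 4 were lower (5.76%). In GABAergic neurons 1 of 8 was lower (6.91%), in glutamatergic neurons 1 of 8 was higher and 2 were lower (6.3%), and in the neurons with equal transmitter marker UMIs the only gene counted was within 1.5-fold (31.8%). In microglia 1 of 3 was higher (6.6%), in macrophages the only gene counted was lower (23.7%), and in endothelial cells 1 of 5 was higher and 1 lower (6.94%). In mural cells 2 of 5 were higher (9.69%) and in stromal cells 1 of 3 was higher (18.2%). The median log2 ratio over all genes counted lay between -0.26 and 0.10 in these classes.

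**Figure D2:**
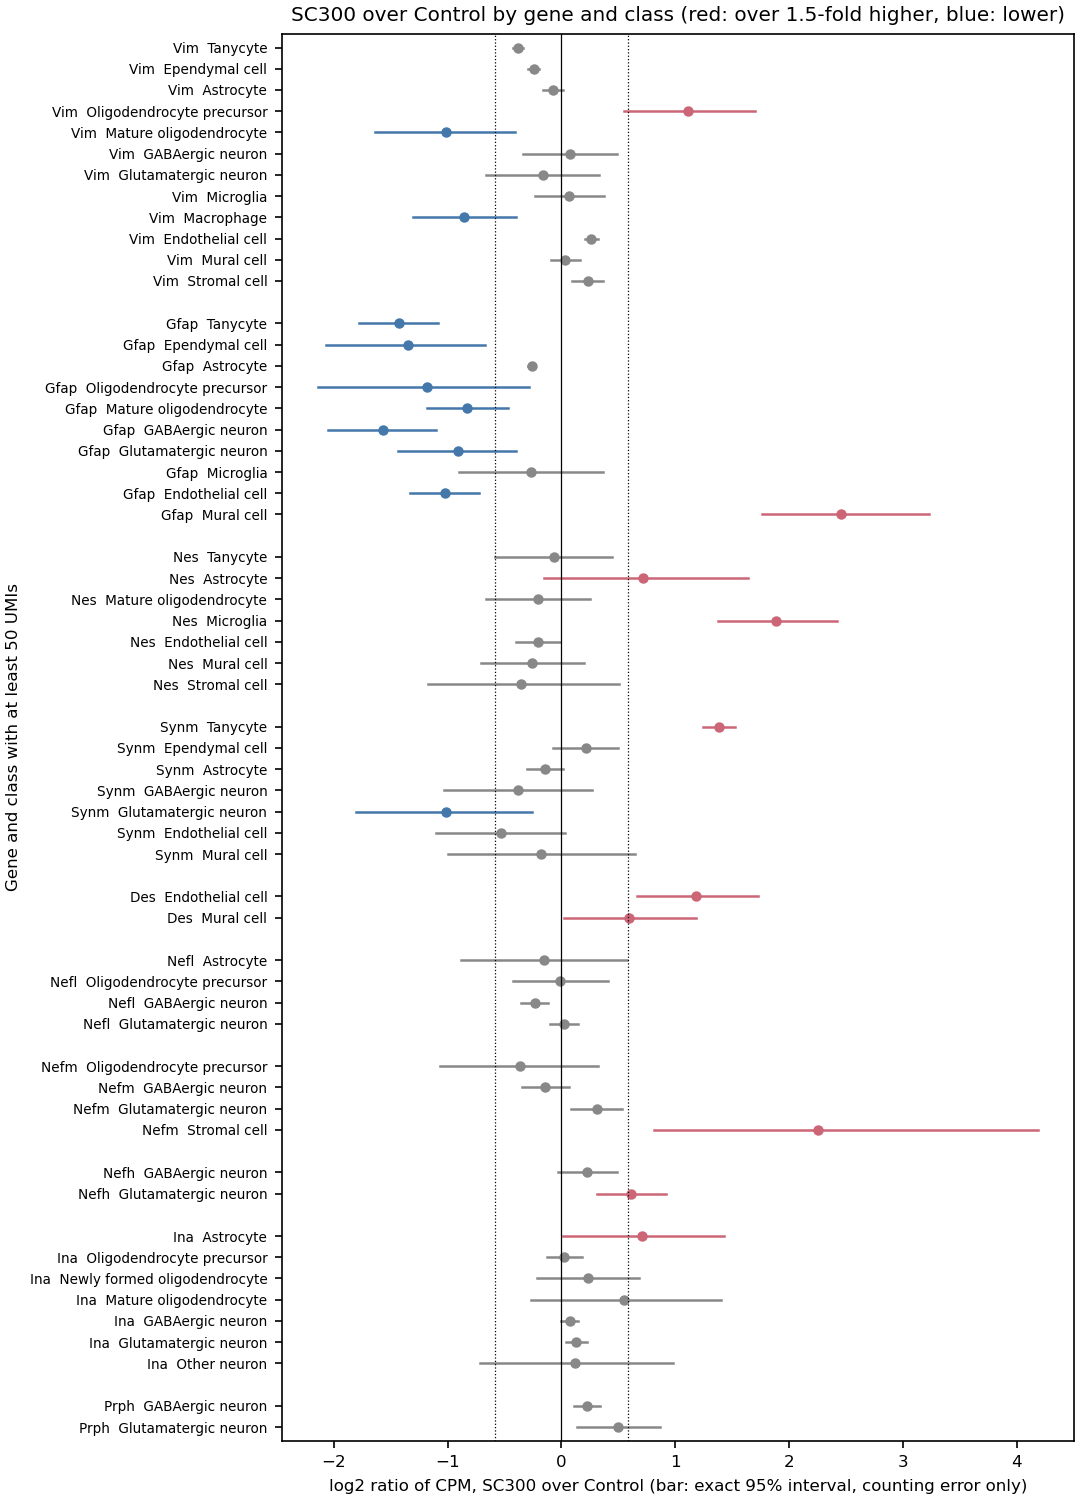
Log2 ratio of CPM in SC300 over Control (x axis) for the 57 combinations of a filament gene and a class with at least 50 UMIs (y axis), with exact 95% intervals for counting error. Points past the dotted lines of 1.5-fold are red where SC300 is higher and blue where it is lower, and the interval is widest for *Nefm* in stromal cells, with 4 UMIs in Control.

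Vimentin RNA was abundant along the third ventricle. In tanycytes, the radial glia that line its floor, *Vim* had 9934 UMIs (3165 CPM, 3104 to 3228) in Control and 6279 UMIs (2428 CPM, 2368 to 2488) in SC300. In ependymal cells, which carry cilia, it had 11130 UMIs (4253 CPM, 4174 to 4333) and 5838 UMIs (3588 CPM, 3496 to 3681). Both levels were lower in SC300, by less than 1.5-fold: the log2 ratio was -0.38 (-0.43 to -0.34) in tanycytes and -0.25 (-0.29 to -0.20) in ependymal cells. With each cell thinned to 2000 UMIs, *Vim* was detected in 97.3% and 95.7% of tanycytes and in 1.66% and 0.435% of mature oligodendrocytes, taken as a background. The median tanycyte held 30 *Vim* UMIs in Control and 28 in SC300.

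In the vessels and their surroundings *Vim* was as high or higher in SC300. Endothelial cells had 4592 and 6429 UMIs (1385 and 1662 CPM), a log2 ratio of 0.26 (0.21 to 0.32). Mural cells had 916 and 1277 UMIs (1318 and 1351 CPM), and the 15 Control and 39 SC300 stromal cells had 582 and 1891 UMIs (2500 and 2933 CPM). Microglia had 53.7 and 56.3 CPM, within counting error (log2 ratio 0.069, -0.23 to 0.37). In macrophages *Vim* was lower in SC300, with 64 UMIs in 15 Control cells (613 CPM) and 127 UMIs in 43 SC300 cells (338 CPM). A single Control macrophage held 44 of the 64 UMIs, and without the 3 highest cells of each library the log2 ratio turned from -0.86 to 0.99. The value of oligodendrocyte precursors also rested on 1 cell: 48 of 88 SC300 UMIs lay in a cell that carried 34 UMIs of ependymal markers and was called a doublet, and without doublets the log2 ratio of 1.11 became -0.025. In mature oligodendrocytes *Vim* had 59 and 39 UMIs (7.45 and 3.69 CPM), a log2 ratio of -1.01 that became -0.44 without doublets.

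*Gfap* belonged to astrocytes, with 18905 UMIs (1919 CPM, 1892 to 1947) in Control and 17548 UMIs (1600 CPM, 1577 to 1624) in SC300. The log2 ratio was -0.26 (-0.29 to -0.23), and it stayed within 1.5-fold in every alternative processing. The thinned share of astrocytes with a *Gfap* UMI was 49.1% (46.1 to 52.0) in Control and 38.5% (35.8 to 41.1) in SC300, against 2.63% and 3.35% in microglia, which lack GFAP. The median depth was 6331 and 6562 UMIs in astrocytes and 7278 and 7875 UMIs in microglia. The sum of the astrocyte markers was also lower in SC300 astrocytes, at 16358 CPM in Control and 14448 CPM in SC300, with all 7 detected. The largest of them over all kept barcodes was *Agt* (227339 UMIs), followed by *Aqp4* (76393), and the markers were not compared singly in astrocytes. Their part in the *Gfap* difference was not tested.

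Astrocytes differed widely in *Gfap*. The median astrocyte held 1 UMI in each library, while the highest held 790 in Control and 913 in SC300, and the 10 highest cells held 22.6% and 31.3% of all astrocyte *Gfap* UMIs. *Vim* lay in the same cells. At 2000 UMIs per cell, *Vim* was detected in 2.09% (1.08 to 3.62) of the 575 Control astrocytes with no *Gfap* UMI and in 66.7% (46.0 to 83.5) of the 27 with 20 or more. In SC300 the shares were 2.46% (1.51 to 3.77) of 813 cells and 71.4% (47.8 to 88.7) of 21 cells. The share thus increased with *Gfap* in both libraries, and cells with 5 to 19 *Gfap* UMIs lay between, at 16.8% and 27.4%. *Synm* followed the same course, from 2.43% to 37.0% in Control and from 3.94% to 47.6% in SC300. Over all astrocytes *Vim* did not differ beyond counting error, at 223 and 211 CPM (log2 ratio -0.075, -0.16 to 0.010).

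**Figure D3:**
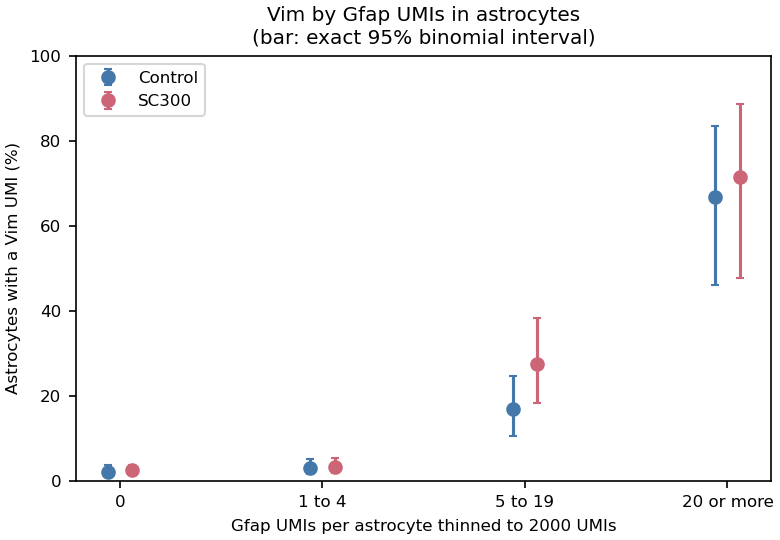
Share of astrocytes with at least 1 *Vim* UMI (y axis, percent) by the number of *Gfap* UMIs in the same cell (x axis), each cell thinned to 2000 UMIs; points are the 2 libraries and bars are exact 95% binomial intervals. The share is under 4% where *Gfap* has 0 or 1 to 4 UMIs and above 60% where it has 20 or more, in both libraries.

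Outside astrocytes *Gfap* was low. In 7 of 9 classes with 50 UMIs it was lower in SC300 by more than 1.5-fold (7.72% over all genes and classes, either way). In tanycytes, some of which are known to build GFAP filaments, it had 300 UMIs in 94 of 271 Control cells (95.6 CPM, 85.1 to 107) and 92 UMIs in 44 of 164 SC300 cells (35.6 CPM, 28.7 to 43.6). With each cell thinned to 2000 UMIs, it was detected in 29 of 258 Control and 11 of 161 SC300 tanycytes. The exact intervals of these shares overlapped, so at this depth the shares did not differ beyond counting error. The log2 ratio of CPM was -1.43 (-1.78 to -1.08) and ranged from -2.03 under a looser gate to -1.03 in graph clusters. Of the Control UMIs, 40 lay in 1 cell with 57 UMIs of astrocyte markers and 3 of tanycyte markers. In ependymal cells *Gfap* had 94 and 23 UMIs (35.9 and 14.1 CPM), a log2 ratio of -1.35 (-2.07 to -0.68). Barcodes outside the classes went the same way. Haemoglobin-rich barcodes had 198 and 46 *Gfap* UMIs (119 and 34.0 CPM, log2 ratio -1.81). Ungated barcodes had 914 and 503 (301 and 140 CPM, log2 ratio -1.11). The cause of these differences was not tested.

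In several other classes a few cells, most of them with UMIs of astrocyte markers, held much of the *Gfap*. In GABAergic neurons (157 and 51 UMIs, 19.8 and 6.70 CPM) the 3 highest cells held 56.7% of the Control UMIs and each carried between 142 and 250 UMIs of astrocyte markers, and the thinned share of cells with *Gfap* was 2.77% and 2.55%. The log2 ratio of -1.57 became -0.022 in graph clusters, which group other cells than the gate. A cluster of 343 cells was named GABAergic with 31% of its gated cells in that class, and another of 265 cells with 61.7%. In glutamatergic neurons (84 and 53 UMIs) the log2 ratio of -0.91 turned to 0.40 without the 3 highest cells. In endothelial cells (251 and 144 UMIs, 75.7 and 37.2 CPM) the log2 ratio of -1.02 became -0.20 without them, and in mature oligodendrocytes (157 and 118 UMIs) it went from -0.83 to -0.22 without doublets. Oligodendrocyte precursors held only 34 and 16 UMIs, a log2 ratio of -1.18 (-2.14 to -0.29). Mural cells were the exception, with 19 UMIs in Control and 142 in SC300 (27.3 and 150 CPM). In them 1 SC300 cell held 120 *Gfap* UMIs beside 163 UMIs of astrocyte markers and was called a doublet, and without doublets the log2 ratio of 2.46 became -0.079.

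Synemin RNA was higher in SC300 tanycytes. It had 597 UMIs in Control (190 CPM, 175 to 206) and 1287 UMIs in SC300 tanycytes (498 CPM, 471 to 526). The log2 ratio was 1.39 (1.25 to 1.53), or 2.62-fold. At 2000 UMIs per cell *Synm* was detected in 22.9% (17.9 to 28.5) of 258 Control and 43.5% (35.7 to 51.5) of 161 SC300 tanycytes, against 0.346% and 0.364% of GABAergic neurons. Without thinning, 41.3% of Control and 20.1% of SC300 tanycytes had no *Synm* UMI.

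A few cells held much of the RNA. In SC300 the highest tanycytes held 156, 146, 62, 62 and 44 *Synm* UMIs, and these 5 cells had between 45681 and 127319 UMIs in all, against a median of 10973. In Control the highest held 42, 33, 22, 19 and 16. The 5 SC300 cells carried between 76 and 245 UMIs of ependymal markers and the 5 Control cells between 9 and 151. Over all tanycytes the ependymal markers summed to 1954 CPM in Control and 2057 CPM in SC300, against 5584 and 6198 CPM in ependymal cells. The part of ependymal RNA was not tested. Without the 3 highest cells of each library the log2 ratio was 1.29, and with every cell weighted alike it was 0.88, so the direction and the 1.5-fold limit held. The tanycyte markers moved in both directions beside *Synm*, with *Frzb* at 310 CPM in Control and 210 CPM in SC300 and *Crym* at 2772 and 3801 CPM. Over all 7 markers the sum was 3426 CPM (7 detected) and 4340 CPM (6 detected, *Col23a1* at 0), and their part in the *Synm* difference was not tested.

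Ependymal cells and astrocytes, the other main sources of *Synm*, stayed within 1.5-fold. Ependymal cells had 247 and 178 UMIs (94.4 and 109 CPM, log2 ratio 0.21, -0.073 to 0.50) and astrocytes 641 and 646 UMIs (65.1 and 58.9 CPM, log2 ratio -0.14, -0.30 to 0.017). The intervals of these ratios did not overlap that of tanycytes, but they leave out the spread between cells, so the difference between classes was not tested. With every cell weighted alike, the tanycyte ratio of 0.88 lay outside its own interval (1.25 to 1.53). In oligodendrocyte precursors, below the 50 UMIs needed, *Synm* had 6 UMIs in Control and 22 in SC300. In glutamatergic neurons, where *Synm* was near the background, 41 and 24 UMIs gave a log2 ratio of -1.02 that became 0.082 with every cell weighted alike.

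**Figure D4:**
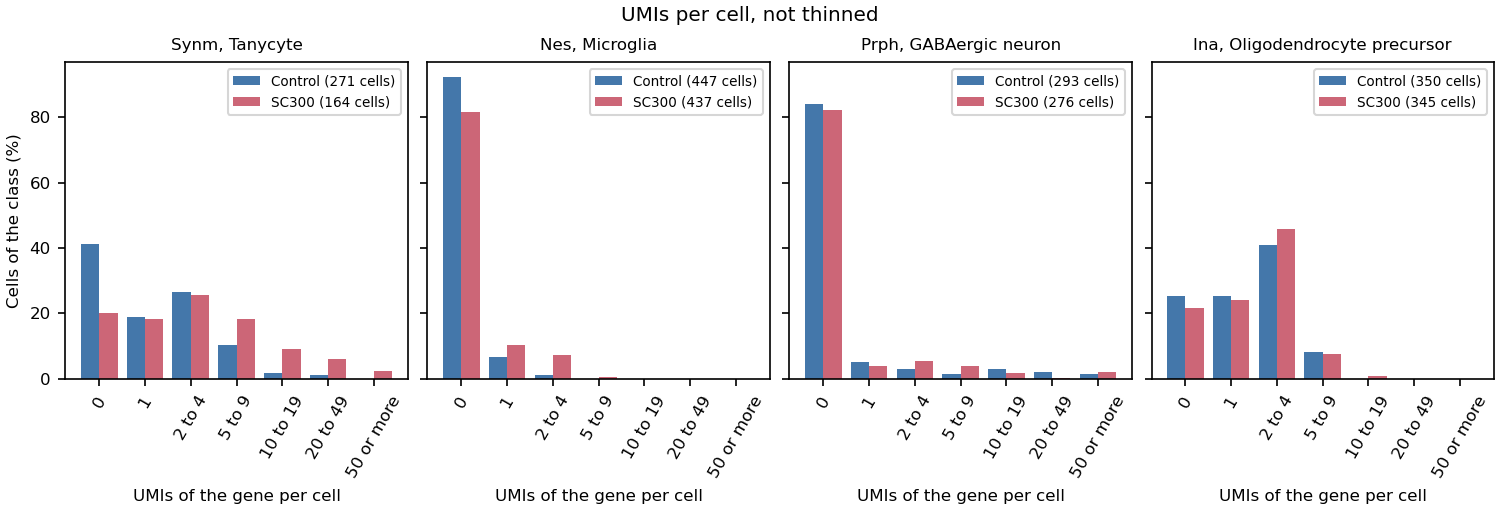
Share of cells of a class (y axis, percent) by the number of UMIs of 1 gene per cell (x axis), not thinned, for Control (blue) and SC300 (red): *Synm* in tanycytes, *Nes* in microglia, *Prph* in GABAergic neurons and *Ina* in oligodendrocyte precursors. SC300 tanycytes with 10 or more *Synm* UMIs and SC300 microglia with 2 to 4 *Nes* UMIs are more frequent than in Control, *Prph* is at 0 in more than 80% of the cells, and the distributions of *Ina* are alike in shape.

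Nestin, a filament protein of progenitors and of endothelial cells in growing vessels, was highest in the vessel wall. *Nes* had 441 and 445 UMIs in endothelial cells (133 and 115 CPM, log2 ratio -0.21, -0.40 to -0.016) and 79 and 90 UMIs in mural cells (114 and 95.2 CPM). Tanycytes, which keep properties of radial glia, had 75 and 59 UMIs (23.9 and 22.8 CPM), and mature oligodendrocytes had 78 and 90 UMIs (9.85 and 8.52 CPM). None of these differed by more than 1.5-fold.

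Microglia did. They had 40 *Nes* UMIs in 35 of 447 Control cells (12.2 CPM, 8.72 to 16.6) and 155 UMIs in 80 of 437 SC300 cells (45.01 CPM, 38.2 to 52.7). The log2 ratio was 1.88 (1.37 to 2.42), or 3.69-fold, and it lay between 1.68 and 1.92 in every alternative. The UMIs were spread over cells: no Control microglia held more than 2 and no SC300 microglia more than 9, and 32 SC300 cells but 5 Control cells held 2 to 4. The thinned shares were 3.58% (2.02 to 5.84) and 7.89% (5.50 to 10.9), against 0.354% and 0.227% of astrocytes. The summed microglial markers were alike (2621 and 2545 CPM, 6 of 6 detected). Endothelial markers summed to 64.4 CPM in Control (6 of 7 detected) and 52.9 CPM in SC300 microglia (5 of 7, *Slco1a4* at 0). Their part in the *Nes* difference was not tested. *Pecam1* had 0 UMIs in all kept barcodes of both libraries and was not used as a marker. In astrocytes *Nes* had only 18 and 33 UMIs (1.83 and 3.01 CPM), and the log2 ratio of 0.72 had an interval from -0.15 to 1.64 and was 0.047 under a stricter gate.

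*Des* was a vascular gene and the least abundant member. It had 43 UMIs in 29 of 355 Control endothelial cells (12.97 CPM, 9.385 to 17.5) and 114 UMIs in 63 of 325 SC300 cells (29.5 CPM, 24.3 to 35.4), a log2 ratio of 1.18 (0.67 to 1.73). At 2000 UMIs per cell the shares did not differ beyond counting error, at 4.20% (2.32 to 6.95) and 3.59% (1.81 to 6.34), with a median depth of 6362 UMIs in Control and 7810 in SC300. Mural cells, which include the pericytes that make desmin, had 39 UMIs in 13 of 69 and 80 UMIs in 33 of 80 cells (56.1 and 84.6 CPM, log2 ratio 0.59, 0.023 to 1.18), and a stricter gate, a looser gate or leaving out doublets or mitochondria-rich cells brought this ratio within 1.5-fold. The endothelial class held some mural RNA, with mural markers at 1231 CPM in Control and 1520 CPM in SC300, and its part in the *Des* difference was not tested. Stromal cells, below the 50 UMIs needed, had 5 and 26 *Des* UMIs (21.5 and 40.3 CPM). Tanycytes had 0 *Des* UMIs in both libraries, which allows up to 0.956 and 1.16 CPM.

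The neuronal members were highest in glutamatergic neurons, except *Prph*. *Ina* had 1613 and 2093 UMIs there (425 and 466 CPM, log2 ratio 0.13, 0.036 to 0.22) and 2944 and 2974 UMIs in GABAergic neurons (372 and 391 CPM, log2 ratio 0.071, -0.0026 to 0.15). *Nefl* had 995 and 1196 UMIs in glutamatergic (262 and 266 CPM) and 1349 and 1102 UMIs in GABAergic neurons (170 and 145 CPM, log2 ratio -0.23, -0.35 to -0.12). *Nefm* had 73.9 and 91.4 CPM in glutamatergic and 52.9 and 47.9 CPM in GABAergic neurons. Within each library the interval of *Nefl*, of *Nefm* and of *Ina* in glutamatergic neurons lay above that in GABAergic neurons. The 7 Control and 4 SC300 *Pvalb* neurons described below, all glutamatergic, held 104 of 280 and 120 of 411 glutamatergic *Nefm* UMIs. Levels of the class without them were not computed.

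*Nefh*, the heavy chain of large myelinated axons, had 141 UMIs (37.2 CPM, 31.3 to 43.9) in Control and 256 UMIs (57.0 CPM, 50.2 to 64.4) in SC300 glutamatergic neurons. The log2 ratio of 0.61 (0.31 to 0.92) was just past 1.5-fold. It rested on few cells: the 3 highest SC300 neurons held 49, 42 and 40 UMIs and the 3 highest Control neurons 20, 19 and 8, and without them the log2 ratio was 0.17. The 4 SC300 and 7 Control neurons with at least 10 UMIs of *Pvalb*, all glutamatergic and described below, held 138 and 56 *Nefh* UMIs. In GABAergic neurons *Nefh* had 29.7 and 34.7 CPM (log2 ratio 0.22, -0.034 to 0.48). At 2000 UMIs per cell, *Nefh* was detected in 8.27% and 8.53% of glutamatergic and 3.81% and 2.91% of GABAergic neurons, against 0.177% and 0.0757% of astrocytes.

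Few neurons showed all 5 neuronal members, and *Prph* was at 0 in 84.0% of Control and 82.2% of SC300 GABAergic neurons. Of *Nefl*, *Nefm*, *Nefh*, *Ina* and *Prph*, the unthinned GABAergic neurons showed all 5 in 5.46% of Control and 6.16% of SC300 cells and none in 7.51% and 5.07%. Exactly 4 were detected in 19.1% of Control and 21.7% of SC300 GABAergic neurons, and in 32.1% and 35.6% of glutamatergic neurons. The light chain was frequent where the medium chain was found: in unthinned neurons *Nefl* was detected in 90.1% of 202 Control cells with *Nefm* and in 61.4% of 228 without, and in SC300 in 95.2% of 187 and 57.9% of 221. After thinning, 14 of 28 Control cells (50%) with *Nefm* and 22.1% of 394 without had *Nefl*, and in SC300 the shares were 38.7% of 31 and 21.2% of 373. Deep cells show more genes of any kind, and only the thinned shares allow for depth.

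A small set of neurons held most of the neuronal *Prph*, and another had high neurofilament levels. These sets were picked after the values were seen, so their levels are a description. Neurons with at least 10 UMIs of *Hdc*, which encodes the enzyme that makes histamine, numbered 8 in Control and 6 in SC300, all in the GABAergic class. They held 851 *Prph* UMIs in Control, 68.7% of those in neurons, and 1018 in SC300 (70.4%). Their *Prph* level was 1392 CPM (1300 to 1489) and 1684 CPM (1582 to 1790), against 35.0 and 37.3 CPM in the other 422 and 402 neurons. All 14 had *Prph*, with a median of 47 UMIs in Control and 200 in SC300 and a range from 10 to 323 and from 12 to 289. They were deep cells, with a median of 76741 and 101490 UMIs against 25714 and 25447 in the rest, and CPM takes account of this. *Nefl* was lower in them than in the other neurons of the same library (91.6 against 206 CPM in Control and 147 against 192 CPM in SC300), whereas *Nefh* was higher (60.5 against 30.5 CPM and 84.3 against 40.8 CPM).

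Neurons with at least 10 UMIs of *Pvalb*, the calcium buffer parvalbumin, carried neurofilament RNA instead of *Prph*. There were 7 in Control and 4 in SC300, all glutamatergic. *Nefl* was at 820 and 1144 CPM, against 184 and 173 CPM in the other neurons. *Nefm* was at 359 and 582 CPM against 52.1 and 55.1 CPM, and *Nefh* at 193 and 669 CPM against 28.0 and 32.1 CPM. *Prph* had 2 UMIs in the Control and 0 in the SC300 cells. The 4 SC300 cells held 138 *Nefh* UMIs, 26.5% of those in neurons, and the 7 Control cells 56 (14.9%).

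**Figure D5:**
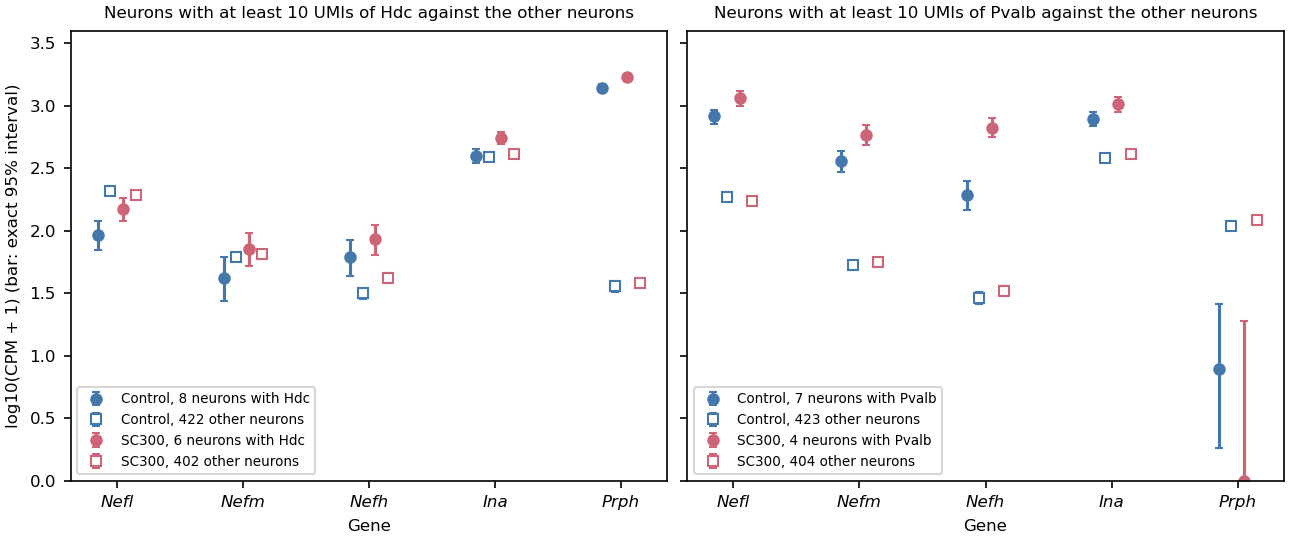
Level (y axis, log10 of CPM + 1, bars are exact 95% intervals) of the 5 neuronal filament genes (x axis) in neurons with at least 10 UMIs of *Hdc* (left, filled) or *Pvalb* (right, filled) and in the other GABAergic and glutamatergic neurons (open), for Control (blue) and SC300 (red). *Prph* lies above 1000 CPM in *Hdc* neurons and under 10 CPM in *Pvalb* neurons, and *Nefl*, *Nefm* and *Nefh* lie above 190 CPM in *Pvalb* neurons of both libraries.

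*Prph* as a whole did not differ by more than 1.5-fold, with 1138 and 1278 UMIs in GABAergic neurons (144 and 168 CPM, log2 ratio 0.22, 0.11 to 0.34) and 101 and 169 UMIs in glutamatergic neurons (26.6 and 37.6 CPM, log2 ratio 0.50, 0.13 to 0.87). The 3 highest GABAergic cells held 62.1% and 55.9% of the UMIs of the class.

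Oligodendrocyte precursors, which divide and give rise to the myelinating cells, carried a neuronal filament gene. *Ina* had 648 UMIs in 261 of 350 Control precursors (291 CPM, 269 to 314) and 705 UMIs in 270 of 345 SC300 precursors (296 CPM, 274 to 318), a log2 ratio of 0.025 (-0.13 to 0.18). The RNA was spread evenly, with at most 8 UMIs per Control cell and 17 per SC300 cell. At 2000 UMIs per cell, it was detected in 48.5% and 42.0% of precursors, in 9.48% and 13.2% of newly formed oligodendrocytes and in 0 of 362 and 0 of 460 mature oligodendrocytes, which allows shares of up to 0.829% and 0.652%. The level descended in the same order, from 291 and 296 CPM over 50.3 and 59.1 CPM to 2.52 and 3.69 CPM, and the intervals of neighboring stages did not overlap. *Nefl* (42.6 and 42.3 CPM) and *Nefm* (18.4 and 14.3 CPM) were also present in precursors, and *Nefh* had 1 UMI in Control and 0 in SC300. The neuron markers summed to 423 and 444 CPM in precursors, against 3846 to 4592 CPM in GABAergic and glutamatergic neurons, and their part in the *Ina* level was not tested. In astrocytes *Ina* had 28 and 51 UMIs (2.84 and 4.65 CPM), and the log2 ratio of 0.71 (0.018 to 1.43) came within 1.5-fold under a stricter gate, graph clusters, a mitochondrial limit or equal weights, with 0.38 as the lowest.

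*Nefm* was also found in stromal cells, the fibroblast-like cells of the meninges and vessels. It had 4 UMIs in 3 of 15 Control cells (17.2 CPM, 4.68 to 44.0) and 53 UMIs in 18 of 39 SC300 cells (82.2 CPM, 61.6 to 108), a log2 ratio of 2.26 (0.82 to 4.19). *Nefl* was at 3 UMIs or fewer in these cells of both libraries, and the neuron markers were lower in SC300 (133 and 71.4 CPM), with *Rbfox3*, *Elavl4* and *Celf4* at 0 in Control and *Celf4* at 0 in SC300. Other marker sums of the stromal class moved in both directions. Astrocyte markers were higher in SC300, at 73.0 CPM (4 of 7 detected) and 486 CPM (6 of 7). So were GABAergic markers at 0 and 17.1 CPM, and haemoglobin markers at 726 and 15432 CPM. Among those lower in SC300 were glutamatergic (4.30 and 0 CPM) and tanycyte markers (34.4 and 26.4 CPM). Markers of oligodendrocyte precursors (442 and 375 CPM) and of newly formed oligodendrocytes (68.7 and 49.6 CPM) were also lower. The 2 highest SC300 cells held 14 and 5 *Nefm* UMIs beside 22 and 41 UMIs of astrocyte markers. The part of these in the *Nefm* difference was not tested. The ungated barcodes, with a median of 14.3% mitochondrial UMIs in Control and 28.99% in SC300, held 4.31% and 2.67% of *Gfap* and 18.7% and 15.6% of *Nes*.

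Of 16 other genes of the filament system (lamins, keratins, lens filament genes and linkers), 15 were listed and gave 66 combinations with at least 50 UMIs, of which 2 were higher and 2 lower by more than 1.5-fold, a share below the 7.72% over all genes and classes. *Dst* (dystonin, a linker) was lower in ependymal cells (549 and 359 CPM, log2 ratio -0.61), *Krt8* in astrocytes (4.16 and 2.10 CPM), *Krt18* was higher in GABAergic neurons (5.68 and 11.6 CPM) and *Krt10* in endothelial cells (5.13 and 10.1 CPM). The partners *Krt8* and *Krt18* were found in ependymal cells, at 255 and 294 CPM and at 37.1 and 49.2 CPM. In tanycytes *Plec* (plectin, which binds filaments to each other and to the cell surface) had 156 and 145 CPM and *Lmna* (lamin A/C of the nuclear envelope) had 113 and 128 CPM, and neither followed *Synm*.

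Across the 14 classes, both libraries summed, the genes most like 9 of the members were named by Pearson's r of log2(CPM + 1) among 12001 genes. *Vim* was most like *Anxa1* (r = 0.951), *Gfap* like *Ahcyl1* (r = 0.939), *Synm* like *Rgs6* (r = 0.952), *Nes* like *Rassf9* (r = 0.904) and *Des* like *Enpep* (r = 0.979). *Nefm* was most like *Kcnk2* (r = 0.897), *Nefh* like *Napb* (r = 0.974), *Ina* like *Arpp21* (r = 0.981) and *Prph* like *Glra2* (r = 0.971). Among the members, *Nefl* and *Prph* were most alike (r = 0.949) and *Nes* and *Ina* most unlike (r = -0.677). The classes come from the same 2 libraries and differ in depth, so these values only describe the pattern.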

How the data were processed

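UMI counts per gene and cell were deposited by the authors as 1 matrix per library, without normalization. Per the labels they were made with Cell Ranger 3.0.1, and the methods align to the Ensembl rat transcriptome. Barcodes with at least 200 genes were kept. For each marker list, log-normalized levels (to 10000 UMIs) were scaled to the 99.5th percentile, averaged and divided by the 99.7th percentile of the list. A barcode took the highest list at 0.3 or more with a lead of 0.1. This second scaling, and the split of tanycytes from ependymal cells (tanycyte where 8 times the tanycyte-marker UMIs exceeded the ependymal-marker UMIs), were set with marker values in view. Neurons were split by *Slc32a1*, *Gad1* and *Gad2* against *Slc17a6*, with ties kept apart. Of 86 markers, 76 were used. Doublets (Scrublet, 1.63% and 1.62%) were kept, except in an alternative.

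Counts were summed per class and library and scaled to CPM. Intervals were Poisson, Clopper-Pearson or conditional binomial, at 95%. No test was made. A count of 0 was given the limit that 3 UMIs allow. Shares were compared in cells thinned to 2000 UMIs, which left out, for example, 108 Control and 58 SC300 astrocytes. All members were named in the classes where they had UMIs, as were other filament genes past 1.5-fold and the genes of like pattern (at least 200 UMIs). The gene most like *Nefl* is not reported here. The members and lists were chosen with earlier results of these data known. The ratio and its interval were tested on simulated Poisson sums. These hold no spread between cells, so the test cannot show that the intervals cover it. Python 3.11.15, numpy 2.4.6, scipy 1.17.1, pandas 2.3.3, scanpy 1.11.5 and matplotlib 3.10.9 were used.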

Additional observations from a re-analysis of the deposited data

Results flagged for a closer look

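In 3 genes the log2 ratio of SC300 over Control passed 1.5-fold upward in 1 class and downward in another; the differences between classes were not tested. *Vim* had 1.11 in oligodendrocyte precursors, -1.01 in mature oligodendrocytes and -0.86 in macrophages. *Gfap* had 2.46 in mural cells, and -1.43 in tanycytes, -1.35 in ependymal cells, -1.18 in oligodendrocyte precursors, -0.83 in mature oligodendrocytes, -1.57 in GABAergic neurons, -0.91 in glutamatergic neurons and -1.02 in endothelial cells. *Synm* had 1.39 in tanycytes and -1.02 in glutamatergic neurons. The upward values of *Vim* and *Gfap* were each near 0 once doublets were left out.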

How the results depend on the processing

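With 1 library per group, counting error is the only error known, and genes with few UMIs in a class have wide intervals. No paired analysis was possible because each group was 1 library made from the pooled tissue of 3 rats. Of the 568 log2 ratios recomputed under 10 alternatives, 504 stayed within the interval of the reported value. Of the 20 ratios past 1.5-fold, 15 kept their direction and 7 stayed past 1.5-fold in every alternative that gave a value (leaving out the 3 highest cells gave none for *Nefm* in stromal cells). The causes of the changes were not tested.

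A stricter gate gave -0.41 for *Gfap* in astrocytes and turned *Vim* in macrophages to 0.55. For *Gfap* in tanycytes a looser gate gave -2.03 and graph clusters -1.03, and graph clusters turned *Gfap* in glutamatergic neurons to 0.19. Leaving out doublets turned *Vim* in oligodendrocyte precursors to -0.025 and *Gfap* in mural cells to -0.079. With every cell weighted alike, *Vim* in tanycytes was -0.29, *Synm* in tanycytes 0.88, *Gfap* in astrocytes -0.43 and *Synm* in glutamatergic neurons 0.082. Without the 3 highest cells of each library, *Vim* in tanycytes was -0.33 and *Gfap* in astrocytes -0.32, and the ratio turned to -0.041 for *Vim* in oligodendrocyte precursors, 0.40 for *Gfap* in glutamatergic neurons, 0.99 for *Vim* in macrophages and -0.025 for *Gfap* in mural cells. Splitting tanycytes from ependymal cells at equal marker UMIs, chosen after seeing the data, gave -0.34 for *Vim* in tanycytes. Because the members were chosen with earlier results of these data known, the shares over all genes given here are no neutral background. The number of combinations past the limit was 20 of 57, against 7.72% over all genes. It was 15 of 52 under a stricter gate (7.75% over all genes), 16 of 51 without doublets (7.52%) and 17 of 58 under a looser gate (7.91%). It was 17 of 52 under a mitochondrial limit (7.84%) and 17 of 57 with equal weights (12.2%). Without the 3 highest cells it was 17 of 57, and the share over all genes was not computed. Graph clusters gave 19 of 56 (8.24%), both other scalings 20 of 57 (7.59% and 7.63%) and the equal split 21 of 58 (7.87%). The number was 26 of 72 with a minimum of 20 UMIs and 6 of 28 with a minimum of 200 UMIs, against 14.1% and 2.95% over all genes. With a limit of 2-fold it was 13, against 1.96% over all genes.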
